A study of Mus musculus with 4 samples.

Results

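The probes described here read miR-720 and miR-1937, small RNAs that were catalogued as miRNAs and are reported to be fragments of transfer RNAs. They were chosen by probe name, miR-720 and every probe whose name contains miR-1937, and this gave 3 of the 566 mouse miRNA probes of the panel. They are mmu-miR-720, the probe mmu-miR-1937a+mmu-miR-1937b, shared by both RNAs and called miR-1937a/b below, and mmu-miR-1937c. The names were picked with the levels of these probes in these samples already known. Levels, shares and group differences of the 3 probes are therefore given as a description. Where a fit of the whole panel calls or does not call them, this is no test of them.

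Levels came from nanoString nCounter miRNA assays, in which a probe pairs each small RNA with a fluorescent barcode and the barcodes are then counted one by one. The mice of both groups were adults that carried R26stoprtTA/+ and Col-tetO-YAPS127A/+. The oncogenic group also carried K14-Cre, which is active in basal keratinocytes, so that doxycycline switched on the S127A mutant of YAP, a constitutively active form of this transcriptional coactivator of the Hippo pathway. The normal group lacked Cre. Both received doxycycline at 1 mg/ml in drinking water for 8 days, and epidermal cells were then scraped from trypsin-treated back skin. There were 2 normal and 2 oncogenic samples, whose titles call the latter tumours while the condition label calls them oncogenic epidermal cells. Neither label ties a sample to 1 animal, so a spread between replicates may be technical.

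Transfer RNAs carry amino acids to the ribosome, and cells cut a part of them into shorter fragments, some the size of a miRNA. A probe built for a miRNA-sized fragment cannot by itself show whether the RNA was bound in a miRNA complex or came from a cut tRNA. miR-720 matches the sequence of a threonine tRNA, and its entry, like those of miR-1937, was later withdrawn from the miRNA catalogue. Such tRNAs are multi-copy genes: the RefSeq table of the assembly GRCm38.p6 lists 403 nuclear tRNA genes, 17 of them for threonine, so no single genomic position is given for these probes. None of the 4 names behind the 3 probes has a sequence in the RefSeq miRNA table, and none is printed.

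Recovered barcode counts of all miRNA probes were 189058 for normal 1, 156092 for normal 2, 230284 for oncogenic 1 and 53709 for oncogenic 2. Without the 3 probes these depths were 124930, 142922, 109265 and 44688. The keratinocyte miRNAs miR-205 and miR-203 were abundant in every sample, at 23300, 40300, 25800 and 23100 normalized counts for miR-205 in that order of samples, which is kept below. The 7 keratinocyte markers summed to 41100 and 58000 in normal and 40400 and 34300 in oncogenic samples. Beside miR-205 and miR-203, the log2 differences between groups were -1.86 for miR-200a, -1.36 for miR-200b, -0.79 for miR-429, -0.82 for miR-141 and 0.10 for miR-200c. The miRNAs of other cell types summed to less and lay mostly on the normal side. The 3 red blood cell markers summed to 942 and 814 normalized counts in normal and 46.3 and 47.6 in oncogenic samples, and the 2 endothelial markers to at most 400 in normal and at most 17.6 in oncogenic samples. The 6 white blood cell markers summed to 621 and 492 against 334 and 440, the 4 dermal and stromal markers to 70.3 and 66.3 against 33.2 and 19.4, and the 2 melanocyte markers to 345 and 171 against 28 and 17.6. In oncogenic 2 the endothelial, dermal and stromal, and melanocyte sums lay below the highest viral probe of that sample, at 22.9. Viral probes have no expected target here, so these sums lay in the range of background. In bulk samples fewer cells of a type and less RNA per cell cannot be told apart. The part of other cell types in the results below was not tested.

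miR-720 was the probe with the largest mean share of miRNA signal on the panel. It read 51572 normalized counts in normal 1 and 10046 in normal 2, and 92371 in oncogenic 1 and 13707 in oncogenic 2. The first sample of each group was high and the second was low, and the groups overlapped, since oncogenic 2 lay below normal 1. These values rest on 58712, 11664, 105747 and 7782 recovered counts. The lowest normalized value, 10046 in normal 2, was 365 times the highest viral probe of that sample, a probe with no expected target here. miR-720 ranked first among the miRNA probes in normal 1 and oncogenic 1, 3 in normal 2 and 2 in oncogenic 2.

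miR-1937a/b followed the same order of samples at a lower level. It read 3843 normalized counts in normal 1, 944 in normal 2, 9509 in oncogenic 1 and 1330 in oncogenic 2. It ranked 7, 23, 4 and 13 among the miRNA probes of these samples. miR-1937c was the dimmest of the 3, at 914 and 353 in normal and 3831 and 852 in oncogenic samples. Here oncogenic 1 was high and normal 2 low, and oncogenic 2 lay just under normal 1. Even the lowest reading, 353 in normal 2, was 12.8 times the highest viral probe of that sample. Its rank was 26 and 44 in normal and 7 and 20 in oncogenic samples. Probes differ in how well they capture their target, so counts of different probes do not give the ratio of the RNAs.

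**Figure D1:**
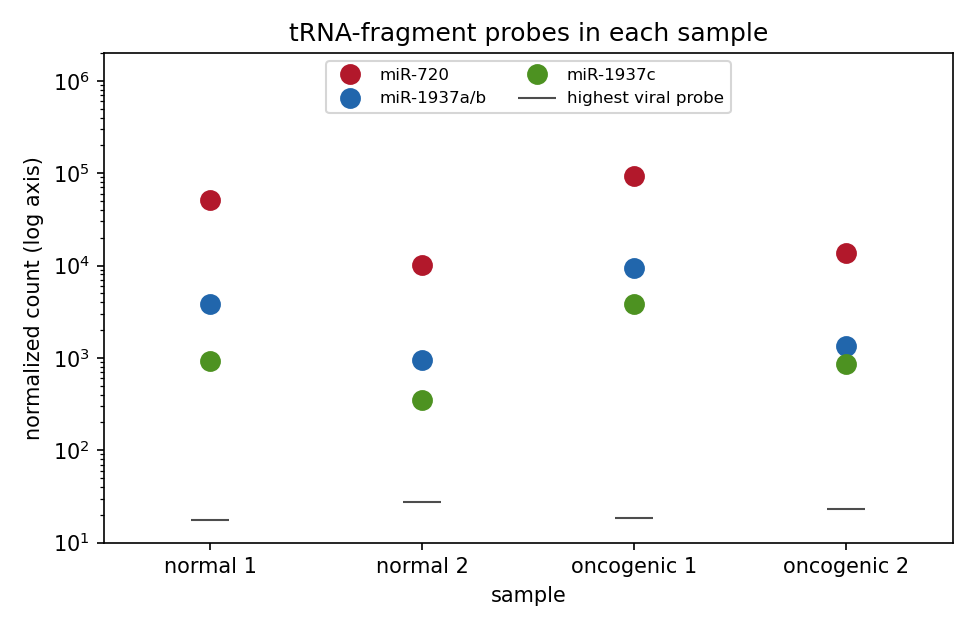
Normalized counts (log axis) of miR-720, miR-1937a/b and miR-1937c in each of the 4 samples, with the highest viral probe of each sample as a bar. All 3 probes are high in oncogenic 1 and lowest in normal 2, and every reading lies above the viral probes, the closest being miR-1937c in normal 2 at 12.8 times.

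Together the 3 probes took a share of the miRNA signal that ran from 8.44% to 52.6% of a sample. Their combined share was 33.9% in normal 1 (exact binomial 95% interval 33.7 to 34.1) and 8.44% in normal 2 (8.30 to 8.58). It was 52.6% in oncogenic 1 (52.3 to 52.8) and 16.8% in oncogenic 2 (16.5 to 17.1). The intervals cover counting error only and are far narrower than the gaps between replicates. As group values, normal samples averaged 21.2% ± 18 and oncogenic samples 34.7% ± 25.3 (mean ± SD, n = 2 each), a difference of 13.5 percentage points that is smaller than either SD. Without oncogenic 1 the difference was -4.38 points, and without normal 2 it was 0.754 points, so its sign and size rested on single samples. Without normal 1 it was 26.2 and without oncogenic 2 it was 31.4 points.

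miR-720 alone accounted for most of that share. It held 31.1% of miRNA signal in normal 1, 7.47% in normal 2, 45.9% in oncogenic 1 and 14.5% in oncogenic 2. The share of miR-1937a/b was 2.31%, 0.702%, 4.73% and 1.41% in the same order, and that of miR-1937c 0.551%, 0.263%, 1.90% and 0.901%. By mean share over the 4 samples miR-720 led with 24.7%, ahead of miR-205 with 20.3%, miR-203 with 6.90%, let-7c with 4.35%, let-7b with 3.35% and miR-23a with 2.89%. miR-1937a/b came next with 2.29%, ahead of miR-27a with 2.24%, miR-1944 with 1.68% and miR-16 with 1.58%. In normal 2 and oncogenic 2, where miR-720 was low, miR-205 held the larger share, 30% and 24.4%.

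**Figure D2:**
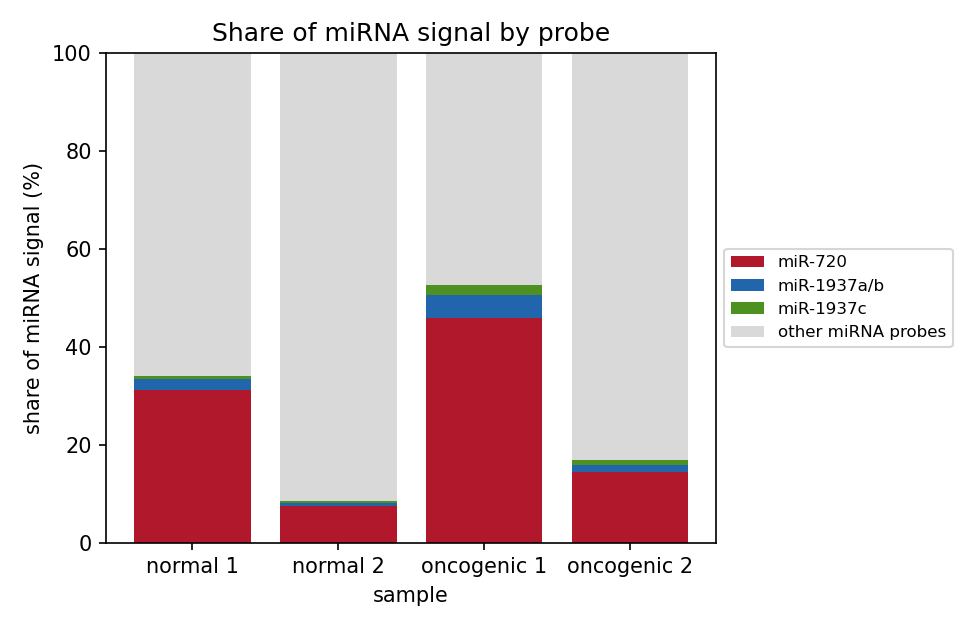
Share of the summed miRNA signal (%) held by each of the 3 tRNA-fragment probes and by all other miRNA probes, 1 bar per sample. The 3 probes hold 33.9% of normal 1, 8.44% of normal 2, 52.6% of oncogenic 1 and 16.8% of oncogenic 2, most of it miR-720.

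For each of the 3 probes the mean gap between replicates was larger than the difference between the groups, although for miR-1937c the normal replicates, 1.37 apart on the log2 scale, differed by less than the group difference of 1.67. miR-720 was 5.13-fold higher in normal 1 than in normal 2 and 6.74-fold higher in oncogenic 1 than in oncogenic 2. For miR-1937a/b these folds were 4.07 and 7.15, and for miR-1937c 2.59 and 4.49. On the log2(value + 1) scale the mean absolute gap between replicates was 2.56 for miR-720, 2.43 for miR-1937a/b and 1.77 for miR-1937c. The median over the 124 tested miRNA probes, those with 30 or more normalized counts in at least 2 samples, was 0.50 (quartiles 0.27 and 0.80). By this gap miR-720 ranked 1 of 124, miR-1937a/b 3 and miR-1937c 8.

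The differences between groups were positive for all 3 probes and none exceeded its replicate gap, as for 48.4% of the tested probes. Normal samples averaged 14.47 ± 1.67 for miR-720 and oncogenic samples 15.12 ± 1.95 (log2 value ± SD, 2 samples each), a difference of 0.64 with a standard error of 1.27 in limma. For miR-1937a/b the means were 10.90 ± 1.43 and 11.80 ± 2.01, and the difference was 0.90 (SE 1.19). For miR-1937c they were 9.15 ± 0.97 and 10.82 ± 1.53, and the difference was 1.67 (SE 0.89). miR-1937c thus had the largest difference of the 3 and the smallest standard error. The median difference of all tested probes was -0.19, and relative to it the differences were 0.84, 1.09 and 1.86. Positive differences were found for 41.1% of the tested probes.

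The groups overlapped for each of the 3 probes, while they did not overlap for 51.6% of the 124 tested probes. None of the 3 passed limma with Benjamini-Hochberg adjustment at 0.05, where 4.03% of the tested probes did, all of them lower in oncogenic cells. Of the tested probes 24.2% had an unadjusted p under 0.05. Since the 3 were picked with their levels known, such calls here and below only describe them. DESeq2 and edgeR on the recovered counts called none of the 3 either. With each sample scaled to its total miRNA counts, miR-1937c passed. With the replicate number of the titles as a block, miR-1937a/b and miR-1937c passed, but the labels do not say that this number pairs samples. The differences of all 3 probes stayed positive under the 8 other scalings between samples, at 0.24 to 1.18 for miR-720, 0.49 to 1.44 for miR-1937a/b and 1.26 to 2.20 for miR-1937c. Without oncogenic 1 the difference of miR-720 was -0.73 and that of miR-1937a/b -0.52, and without normal 2 they were -0.54 and -0.11. miR-1937c kept a positive difference, 0.58 without oncogenic 1 and 0.98 without normal 2. Leaving out normal 1 or oncogenic 2 raised the difference of each probe, up to 2.02 for miR-720, 2.32 for miR-1937a/b and 2.75 for miR-1937c.

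**Figure D3:**
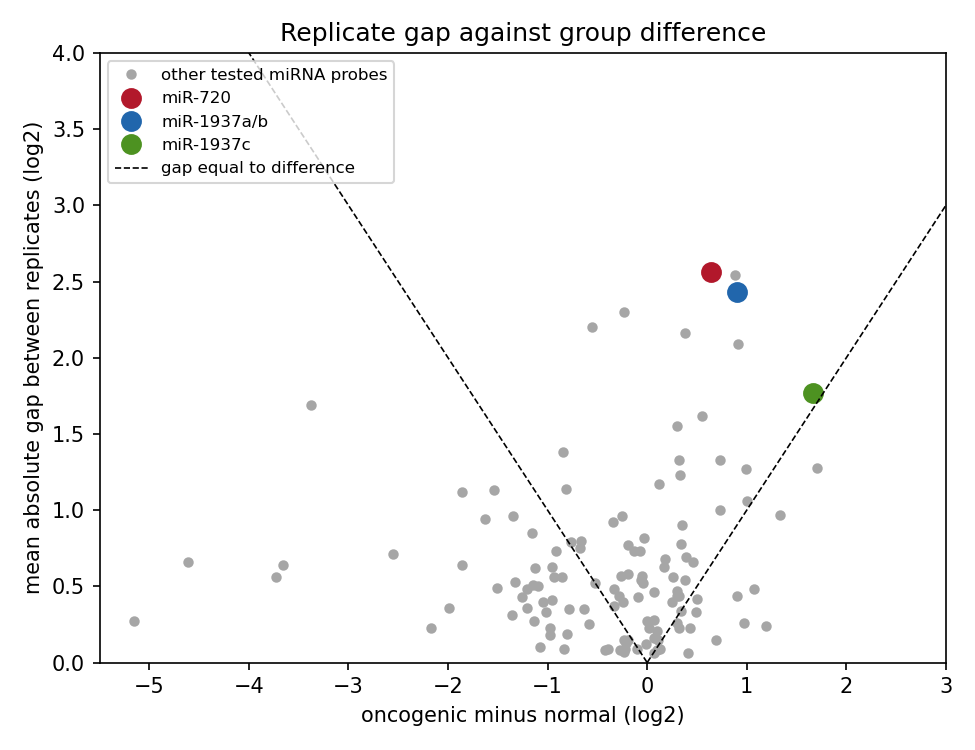
Mean absolute gap between the replicates of a group (log2) against the oncogenic minus normal difference (log2) for the 124 tested miRNA probes, with dashed lines where gap and difference are equal. miR-720 (gap 2.56, difference 0.64) and miR-1937a/b (2.43 and 0.90) lie far inside the lines, and miR-1937c (1.77 and 1.67) lies close to one.

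The 3 probes moved together, and the closest pair was miR-720 and miR-1937a/b. A ratio of probes within a sample does not depend on how samples are scaled to each other. miR-720 read 13.4 times miR-1937a/b in normal 1, 10.6 in normal 2, 9.71 in oncogenic 1 and 10.3 in oncogenic 2. This ratio varied 1.38-fold from its lowest to its highest sample, while the summed signal of the 3 probes varied 9.32-fold. The difference of the log2 ratio between groups was -0.26, with SDs of 0.24 in normal and 0.06 in oncogenic samples, and it was -0.09 without normal 1 and -0.42 without normal 2.

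miR-1937c kept a looser ratio to the others. miR-720 read 56.4, 28.4, 24.1 and 16.1 times miR-1937c, a 3.51-fold range. miR-1937a/b read 4.2, 2.67, 2.48 and 1.56 times miR-1937c, a 2.69-fold range. In each oncogenic sample these 2 ratios lay below those of each normal sample, so miR-1937c made up more of the summed signal of the 3 there, 3.62% and 5.37% against 1.62% and 3.11%. The log2 differences of these ratios were -1.02 (SDs 0.70 and 0.41) and -0.77 (SDs 0.46 and 0.47), and without normal 1 they were -0.53 and -0.44. Without oncogenic 2 they were -0.73 and -0.43. The ratio of miR-720 to miR-1937a/b also lay lower in both oncogenic samples, at 9.71 and 10.3 against 13.4 and 10.6. Among single tested probes the groups did not overlap for 51.6%. The probes for miR-1937a/b and miR-1937c carry names of 1 family and may share signal, which was not tested.

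Profiles over the 4 samples were compared with all other tested probes by the root mean square deviation between log2 values, each probe centred on its mean. Each such likeness rests on 4 samples, within each of which all probes share the library and the scaling factor, and it is a description. For miR-720 the nearest of 123 probes was miR-496 at 0.13, then miR-1937a/b at 0.18, miR-741 at 0.32, miR-33 at 0.46 and miR-193b at 0.48, while the median probe lay at 1.39. miR-496 read 46.6 and 7.75 normalized counts in normal and 92.6 and 14.1 in oncogenic samples, so 2 of its 4 values lay in the range of the viral probes, whose highest readings were 17.6 to 27.6. miR-741 read 87.0, 29.3, 176 and 24.7, and miR-193b 148, 63.7, 290 and 70.4, in the order used above. miR-33 read 65.9, 15.5, 68.1 and 10.6, and its values in normal 2 and oncogenic 2 lay below the highest viral probe of their sample. These low probes were also high in normal 1 and oncogenic 1 and low in the other samples. For miR-496, miR-741 and miR-33 only the readings in normal 1 and oncogenic 1 reached the minimum for testing. Without these high readings they would not have been compared, so their likeness rests in part on the filter. miR-193b reached the minimum in every sample.

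The probes nearest to miR-1937a/b were miR-496 at 0.16, miR-720 at 0.18, miR-741 at 0.31, miR-193b at 0.44 and miR-1937c at 0.51. For miR-1937c the nearest was miR-691 at 0.27, then miR-21 at 0.50, miR-1937a/b at 0.51, miR-138 at 0.54 and miR-193b at 0.56, with miR-720 in place 7 at 0.65. miR-21, a miRNA known for promoting growth in many tumours, read 684 and 358 in normal and 1500 and 653 in oncogenic samples. miR-691 read 57.1 and 36.2 in normal and 295 and 77.5 in oncogenic samples, so its groups did not overlap. Groups did not overlap for 51.6% of the 124 tested probes, and for 12.9% both oncogenic samples lay above both normal samples.

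The 13 other probes named as near in profile or as fragments of other RNAs were looked up in the RefSeq table (GRCm38.p6). The lookup did not cover every chromosome. In it 2 of the 13 matched a mature sequence by their full name, and they are shown as references for these comparisons. miR-691, nearest to miR-1937c, lies on the minus strand at chr16:74342005-74342026. miR-1839-5p, described below, lies on the plus strand at chr7:81529919-81529940. Capitals mark the seed, bases 2 to 8 of the mature miRNA, through which a miRNA pairs with its targets.
mmu-miR-691: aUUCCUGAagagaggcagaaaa
mmu-miR-1839-5p: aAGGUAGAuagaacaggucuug
These seeds differ from each other.

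**Figure D4:**
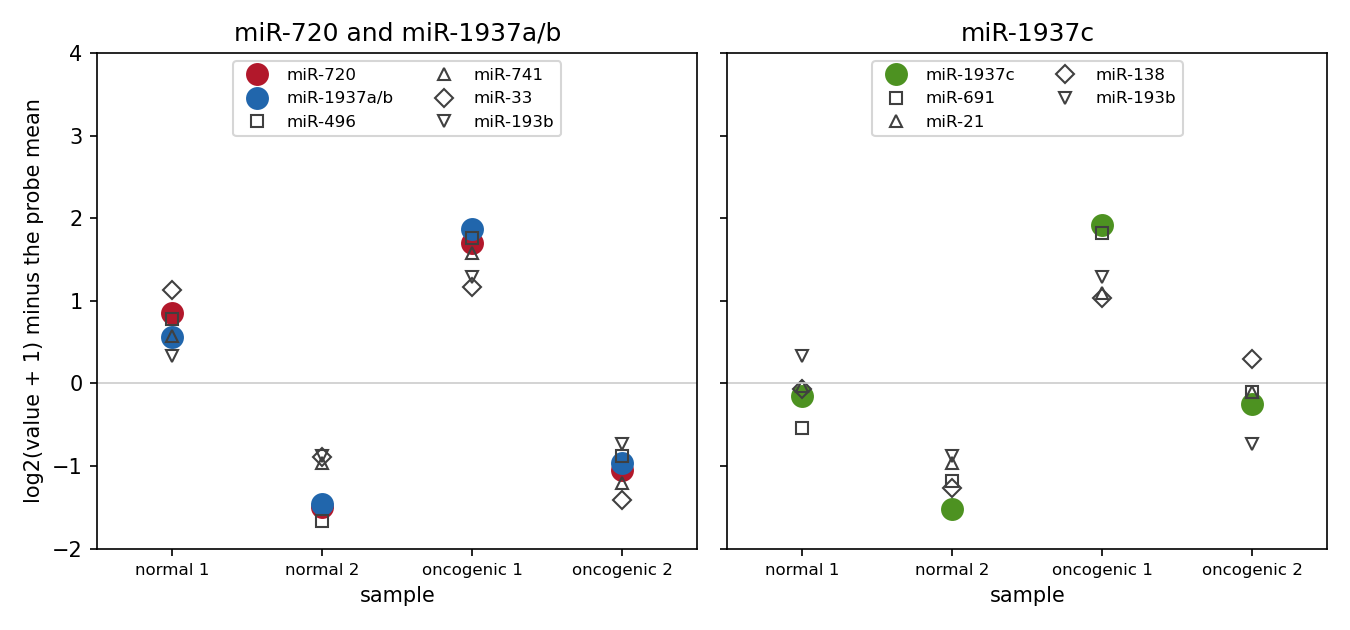
log2(value + 1) of each probe minus its own mean over the 4 samples (samples on the horizontal axis), with the tRNA-fragment probes as filled points and the nearest other probes as open symbols. miR-720 and miR-1937a/b lie 0.18 apart (root mean square) and miR-496 lies 0.13 from miR-720, and these probes are high in normal 1 and oncogenic 1. miR-1937c is high in oncogenic 1 (1.917) but close to its mean in normal 1 (-0.149).

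Most tested probes for other RNAs of doubtful miRNA status had another order of samples. The panel held 17 probes of a list of entries numbered near or reported as fragments of small nucleolar, ribosomal or mitochondrial RNA (miR-664, miR-805, miR-1839, miR-2132 to miR-2146, miR-2182 and miR-2183), and 6 of them were tested. Together the 17 probes held 0.245% to 1.09% of miRNA signal in a sample. Of the 6 tested, 0 passed the limma test in either direction, beside 4.03% of all tested probes, so few calls could fall among 6. Positive differences were found for 5 and a negative one for 1, beside 41.1% positive over all tested probes. The median difference of the 6 was 0.30 beside -0.19 for all tested probes. Only miR-1839-5p, which lies in a small nucleolar RNA, was higher in the first replicate of both groups as the 3 tRNA-fragment probes and 51 of the 124 tested probes were, at 65.9 and 53.4 in normal and 34.9 and 21.1 in oncogenic samples. For 3 of the 6, miR-2140, miR-2141 and miR-2135, both gaps ran the other way, as for 24 of the 124. miR-2140 read 50.1 and 195 in normal and 85.6 and 407 in oncogenic samples, low where miR-720 was high, and ranked 7 of 124 by replicate gap. miR-2141 read 54.5, 91.3, 67.3 and 120, and miR-2135 read 54.5, 64.6, 52.4 and 96.9. miR-2146 barely moved, at 60.6, 61.2, 66.4 and 61.6.

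Because of their size the 3 probes moved the total signal of a sample. Summed normalized counts of all miRNA probes were 166068, 134438, 201156 and 94598, a 2.13-fold range with oncogenic 1 highest. Without the 3 probes they were 109738, 123095, 95444 and 78709, a 1.56-fold range with both oncogenic samples below both normal samples. The 3 probes themselves summed to 56330 and 11343 in normal and 105712 and 15889 in oncogenic samples.

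**Figure D5:**
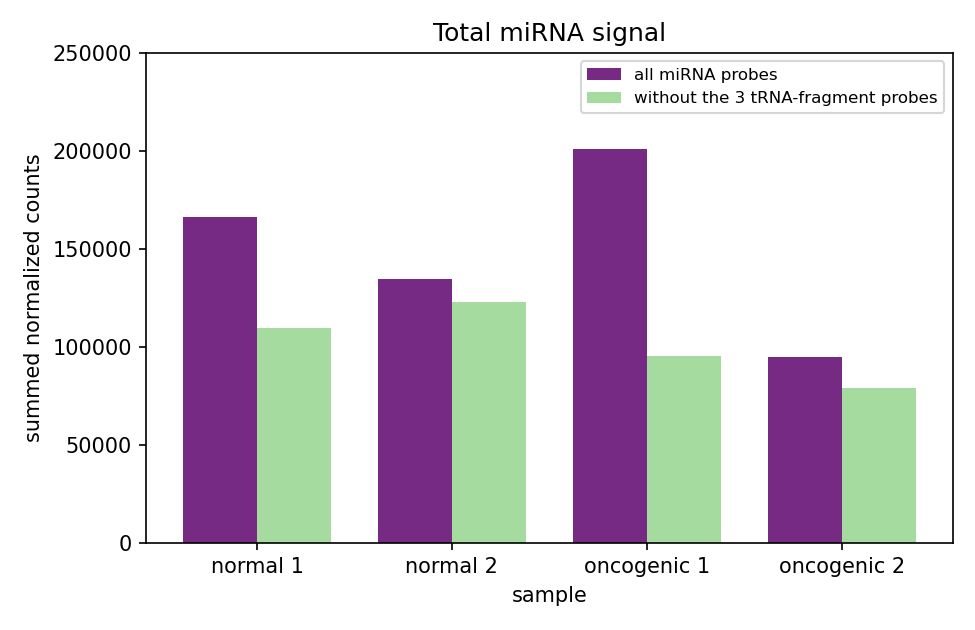
Summed normalized counts of all miRNA probes and of all miRNA probes other than the 3 tRNA-fragment probes, as a pair of bars per sample. Oncogenic 1 is highest with them (201156) and lies below both normal samples without them (95444).

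A scaling to total counts therefore gave the median of the other probes another sign according to whether the 3 probes were counted in the total. With them, the median log2 difference of the other 121 tested probes was -0.09, with 56 positive and 65 negative. Without them it was 0.21, with 74 positive and 47 negative, a shift of 0.30. The keratinocyte miRNA miR-205 had a difference of -0.21 with them and 0.10 without, and miR-203 had -0.08 and 0.23. On the deposited scale these were -0.33 and -0.19. In shares, miR-205 held 14.0%, 30%, 12.8% and 24.4% of all miRNA signal. Of the signal outside the 3 probes it held 21.2%, 32.7%, 27.1% and 29.3%.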

How the data were processed

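Small RNA of 4 epidermal cell samples was counted with the nanoString nCounter miRNA assay, per the labels' protocols. The authors deposited normalized signal; how it was normalized is not given in the sources used. The values show 1 factor per sample (0.878, 0.861, 0.874 and 1.76): divided by it, 100% of the values of 603 scaled probes (miRNA, viral and mRNA) came out whole within 0.1 count. Positive, negative, plant and worm control probes were unscaled counts. Counts behind each sample are given above; intervals cover counting error only.

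The test was limma 3.58.1 (R 4.3.3), lmFit and eBayes with trend, two-sided, on log2(value + 1), over 124 miRNA probes at 30 or more in at least 2 samples, with Benjamini-Hochberg adjustment. It was tested on simulated data. Replicates differed beyond counting noise (chi-square 40632 on 433 and 27627 on 390 degrees of freedom, and 8533 on 430 and 3949 on 387 without the 3 probes), and no pair was merged as 1 assay; repeat assays of 1 RNA would not be told apart from separate samples by this. Alternatives were 8 scalings, a pseudocount of 10, no filter, a minimum of 100, no trend, negative control subtraction, leaving out each sample, the replicate number as a block, edgeR 4.0.16 and DESeq2 1.42.0 on recovered counts. Members and lists were chosen with earlier results of these data known. Named probes were the 3 members, the 10 with the highest mean share, the 5 nearest each member in profile, and up to 4 tested probes of the fragment list by level; miR-1839-5p falls outside it and was chosen after its values were seen.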

Additional observations from a re-analysis of the deposited data

How the results depend on the processing

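The differences of the 3 probes stayed positive under the 8 scalings, the pseudocount of 10 and the background setting, and those of the 3 ratios stayed negative under the latter 2 and with each sample left out. Without 1 sample each, the difference ranged from -0.73 to 2.02 for miR-720, -0.52 to 2.32 for miR-1937a/b and 0.58 to 2.75 for miR-1937c, and that of the combined share from -4.38 to 31.4 points. With negative controls subtracted the share differed by 13.7 points, and over all scaled probes by 13.1.

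The number of changed probes was 5 of 124 (5 lower). It was 8 (5 lower, 3 higher) with median centring and with the 100 most abundant miRNAs, 3 with quantile normalization and with totals without the 3 probes, 9 (8 lower, 1 higher) with totals that include them, 1 with edgeR and 11 (8 lower, 3 higher) with DESeq2. Without 1 sample it ranged from 1 (without normal 2) to 26 (without oncogenic 1), with 3 without normal 1 and 10 without oncogenic 2. The lone sample of a group is there assumed to vary like the other group. Of the 3 probes, 0 passed in the main fit and 1 (miR-1937c) passed with totals that include the 3 probes. With the replicate number as a block 2 passed, as given below.

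The titles give both groups the replicate numbers 1 and 2, but nothing in the labels says that a number marks a shared animal or day. Gaps between replicates 1 and 2 correlated across the 124 probes (Pearson r = 0.66, and 0.61 without the 3 probes; probes are not independent replicates). With the replicate number as a block, 30 probes passed (24 lower, 6 higher), among them 2 of the 3 probes, miR-1937a/b and miR-1937c. Depth was lowest in oncogenic 2, where miR-1937c rests on 484 counts.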
